A study of Mus musculus with 2 samples.

Results

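The nuclear receptors that are not part of the circadian clock were examined in liver RNA of wild-type mice and of mice labelled as lacking Fhl2. A list of 38 receptor genes was used, and a gene counted as measured when an array probe was annotated to that symbol and to no other. This gave 37 of the 38 genes, out of 19938 genes measured in all, each through 1 probe, and Nr1h2 was not measured under this rule. Both groups were male mice aged 10 to 11 weeks on a Hybrid Black Swiss/129-SV/J background, with no treatment named, and RNA from the left liver lobe of 3 mice was pooled for each group. One group was wild-type and the other was FHL2-/-, a homozygous knockout of Fhl2 from an allele made in an earlier study, with the deleted exons not named. Each pool was hybridised to 1 Affymetrix array, so there are no replicates, no difference has a test, and mouse-to-mouse spread cannot be seen. The question the design sets is which liver transcripts differ without FHL2, a LIM-domain protein known to bind transcription factors, the androgen receptor among them.

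Nuclear receptors are transcription factors that bind DNA through zinc fingers and change their activity when a small lipid-soluble molecule, such as a bile acid, a fatty acid, a retinoid or a steroid, occupies their ligand pocket. Many work as pairs with a retinoid X receptor, while others act alone or as pairs of their own kind. Some members have no settled ligand and are controlled mainly by how much of them is made. In liver they set the output of bile acid, lipid, glucose and drug metabolism.

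The promoters of 6 members are shown because the values below turn on these genes: the NR4A genes and Ppard hold the members furthest apart between the pools, and Nr1h4 and Nr1i3 are among the members with the highest values. The sequences are the 250 bases before the RefSeq start on GRCm38.p6, 5′ to 3′ on the gene's strand, and a match of letters is a description, not a site. In the NR4A promoters the capitals mark TGACG, the core of the cyclic AMP response element, or its reverse complement CGTCA. Nr4a1 is at chr15:101266596-101266845 on the plus strand, Nr4a2 at chr2:57124004-57124253 on the minus strand and Nr4a3 at chr4:48045055-48045304 on the plus strand.
Nr4a1: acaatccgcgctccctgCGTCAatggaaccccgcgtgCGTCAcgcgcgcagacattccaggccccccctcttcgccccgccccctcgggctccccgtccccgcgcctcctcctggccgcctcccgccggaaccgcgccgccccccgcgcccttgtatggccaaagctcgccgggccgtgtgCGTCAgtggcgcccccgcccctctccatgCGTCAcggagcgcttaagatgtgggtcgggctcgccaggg
Nr4a2: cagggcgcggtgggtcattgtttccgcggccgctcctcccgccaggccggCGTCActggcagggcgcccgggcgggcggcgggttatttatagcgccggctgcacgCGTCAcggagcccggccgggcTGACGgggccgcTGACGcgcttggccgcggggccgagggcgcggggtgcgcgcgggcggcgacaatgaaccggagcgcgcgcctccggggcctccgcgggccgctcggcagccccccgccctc
Nr4a3: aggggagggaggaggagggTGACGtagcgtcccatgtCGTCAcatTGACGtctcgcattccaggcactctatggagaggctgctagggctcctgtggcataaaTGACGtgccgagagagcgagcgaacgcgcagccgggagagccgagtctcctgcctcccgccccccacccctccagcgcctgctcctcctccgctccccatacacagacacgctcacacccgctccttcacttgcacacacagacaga

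Each of the 3 NR4A promoters held 4 copies of TGACG over both strands. Of 32817 promoter windows of the same length in the RefSeq table, 17.7% held at least 1 copy and 0.137% held 4 or more. The nearest copy to the start lay 40 to 36 bases before it in Nr4a1, 111 to 107 bases before it in Nr4a2 and 147 to 143 bases before it in Nr4a3. The full palindrome TGACGTCA, which contains TGACG, was in 0 of the 55 windows of members and in 1.55% of all windows.

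In the promoter of Ppard, at chr17:28232504-28232753 on the plus strand, the capitals mark the GC box GGGCGG, searched on both strands. In that of Nr1h4, at chr10:89506659-89506908 on the minus strand, they mark the single hexamer AGGTCA that nuclear receptors bind, here as its reverse complement TGACCT. In that of Nr1i3, at chr1:171213720-171213969 on the plus strand, they mark the E-box CACGTG.
Ppard: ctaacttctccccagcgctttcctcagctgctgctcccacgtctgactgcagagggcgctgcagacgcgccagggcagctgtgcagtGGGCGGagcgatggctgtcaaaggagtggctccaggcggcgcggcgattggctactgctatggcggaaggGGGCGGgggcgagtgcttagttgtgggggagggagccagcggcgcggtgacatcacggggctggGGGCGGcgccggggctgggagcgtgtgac
Nr1h4: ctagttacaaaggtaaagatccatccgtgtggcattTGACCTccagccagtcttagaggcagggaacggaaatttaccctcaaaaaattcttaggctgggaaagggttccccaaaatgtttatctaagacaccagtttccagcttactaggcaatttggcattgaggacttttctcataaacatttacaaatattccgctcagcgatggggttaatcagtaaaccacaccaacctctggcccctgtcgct
Nr1i3: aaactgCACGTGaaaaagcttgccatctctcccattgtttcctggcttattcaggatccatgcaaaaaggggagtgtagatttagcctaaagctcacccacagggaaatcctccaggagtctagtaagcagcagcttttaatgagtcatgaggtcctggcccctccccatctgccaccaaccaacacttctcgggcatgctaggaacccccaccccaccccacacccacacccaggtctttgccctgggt

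Ppard held 3 copies of GGGCGG, a motif with at least 1 copy in 32.7% of all windows and in 45.5% of the windows of members. Other members held as many or more, such as Nr4a1 with 3, Nr4a2 with 4 and Nr2f6 with 7. AGGTCA was in 18.2% of the windows of members and in 14% of all windows, and CACGTG in 7.27% and 6.02%. CG dinucleotides numbered 34, 44 and 18 in the windows of Nr4a1, Nr4a2 and Nr4a3, against a median of 6 over all windows. Among the sensors of bile acids, sterols and foreign compounds there were 5 in Nr1h4, 2 in Nr1i3, 2 in Nr1i2, 8 and 7 in the windows of Nr1h3, 11 in Vdr and 13 in Nr1h2. Members with high values differed widely, since Nr2f6 had 42 and Nr2f2 had 1. Windows were found for 35 of the 38 listed genes, and 20 of these had 1 window.

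Values are log2 array values, in which a step of 1 is a doubling. A gene was called past the level filter when its mean over both arrays reached the 40th percentile of the probes with 1 gene symbol, 5.44, which 28 of the 37 measured receptors and 11924 of all genes did. The closest member above the filter was Nr5a1 with a mean of 5.78, and the closest below was Nr4a2 with 5.41. In no member past the filter was either array below it. Of 6 members the value lay in the top 10% of all genes: Hnf4a, Nr1i3, Nr1h4, Ppara, Rxra and Nr1h3.

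Hnf4a, which encodes the receptor that maintains hepatocyte identity, had the highest value, at 10.68 in wild-type RNA and 10.83 in knockout-labelled RNA. Nr1i3, encoding the xenobiotic sensor CAR, came next by mean value with 9.58 and 9.76, and Nr1h4, encoding the bile acid receptor FXR, followed with 9.56 and 9.77. After these came Ppara, Rxra, Nr1h3, Nr2f6, Nr1i2, Nr2f2 and Nr5a2, which completed the 10 highest, with means from 9.57 down to 8.45. The next member, Esrra, had a mean of 7.70, a gap of 0.75. The order is one of probe values, and probes bind with different strength: probes for the same gene past the filter differed by an SD of 0.75 in level, and the median gap between neighbouring members was 0.139. The order of neighbours is therefore not settled.

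**Figure D1:**
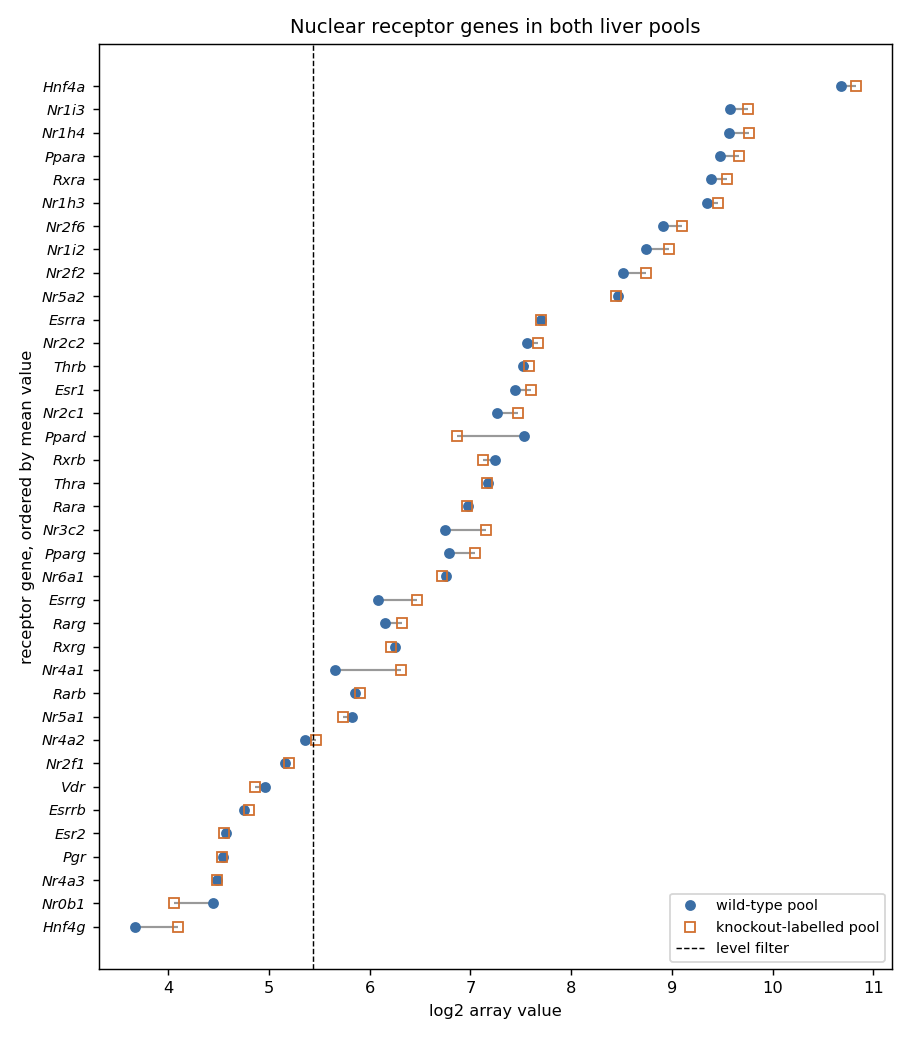
Log2 array value (horizontal axis) of the 37 measured nuclear receptor genes (vertical axis, ordered by mean value) in the wild-type pool (filled circles) and the knockout-labelled pool (open squares), with 1 array each and the level filter at 5.44 as a dashed line. Ppard and Nr4a1 show the longest lines between the pools, in opposite directions, and the 9 highest members all lie a little higher in the knockout-labelled pool.

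In several classes 1 member stood above its relatives in liver by more than that SD. Ppara exceeded Ppard and Pparg, Rxra exceeded Rxrb and Rxrg, Hnf4a was at 10.76 by mean against 3.88 for Hnf4g, and Nr5a2 was at 8.45 against 5.78 for Nr5a1. The retinoic acid receptors had means of 6.97 for Rara, 6.24 for Rarg and 5.88 for Rarb. The 9 members below the filter were Nr4a2, Nr2f1, Vdr, Esrrb, Esr2, Pgr, Nr4a3, Nr0b1 and Hnf4g. They include receptors known mainly from other organs, such as Pgr, the progesterone receptor of the reproductive tract, and the vitamin D receptor gene Vdr, prominent in intestine and kidney.

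All differences are given as the knockout-labelled minus the wild-type pool. Fhl2 itself was at 5.30 and 5.33, below the filter, so its 1 probe, which may lie outside the deleted part, does not check the genotype. Hepatocyte markers, 8 of 8 measured, had mean values from 10.76 to 13.70. Over all probes the medians were 5.76 in wild-type RNA and 5.71 in knockout-labelled RNA.

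The largest differences among the receptors were in Ppard, 1.58-fold lower in the knockout-labelled pool, and Nr4a1, 1.57-fold higher. Next among the members past the filter were Nr3c2, the mineralocorticoid receptor gene, 1.32-fold higher, and Esrrg, an estrogen-related receptor gene, 1.31-fold higher. These 4 were also the only members past the filter to differ by more than 0.286 on the log2 scale. That is 2 times the SD of 0.143 between the differences of several probes for 1 gene (660 genes, 1809 probes). This SD covers probe error on these arrays, neither mice nor hybridisations. Below the filter it was 0.237, so 0.143 may be too narrow for dim members such as Nr4a1 and Esrrg. The share of all genes past 0.286 was not counted. At the nearby 0.263, which is 1.2-fold, 8.66% of all genes past the filter were higher and 6.16% lower. Of the 28 members, 12 differed by less than 1 SD between probes. Hnf4a lay just past that line at 1.05 SD. Of all genes past the filter, 38.1% differed by at least as much as Hnf4a, so most differed by less.

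At 1.5-fold, 1 of the 28 members was higher (3.57%) and 1 was lower (3.57%), against 0.621% higher and 0.335% lower among all genes past the filter. At 1.2-fold, 3 members were higher (10.7%) and 1 was lower, against 8.66% and 6.16% of all genes, so the share higher at this fold was near the background. After a shift of both columns to a common median, which adds 0.04 to every difference, 6 members were higher and 1 lower at 1.2-fold, with 12.7% of all genes higher.

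Smaller differences leaned to the higher side. The median difference of the 28 members was 0.15, against 0.04 for all genes past the filter, and 20 of the 28 (71.4%) were above 0, against 59.5%, while 8 were below 0, against 40.4%. At 1.1-fold, a threshold added after the values were seen, 15 members (53.6%) were higher, against 26.3% of all genes, and 1 was lower, against 15.7%. With the trend of difference on level removed by lowess, 18 members were above 0 (64.3%, against 50.9% of all genes), 11 were higher at 1.1-fold (against 19.5% of all genes) and the median was 0.10, against 0.0039. With the common median 24 members were above 0 (85.7%), against 69.2% of all genes.

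The members with the highest values made up much of this lean. Of the 10 highest, 9 were above 0, at differences from 0.11 for Nr1h3 to 0.23 for Nr1i2, and Nr5a2 was at -0.02. Their median was 0.19, against 0.05 for the 2531 genes in the same range of level, of which 65.7% were above 0. At 1.1-fold 8 of the 10 were higher, against 23.3% of those genes. The other 18 members past the filter had a median of 0.05 and ran from -0.66 to 0.65. The single differences of these 9 ran from 0.767 SD between probes for Nr1h3 to 1.59 SD for Nr1i2, so none reached 2 such SD.

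**Figure D2:**
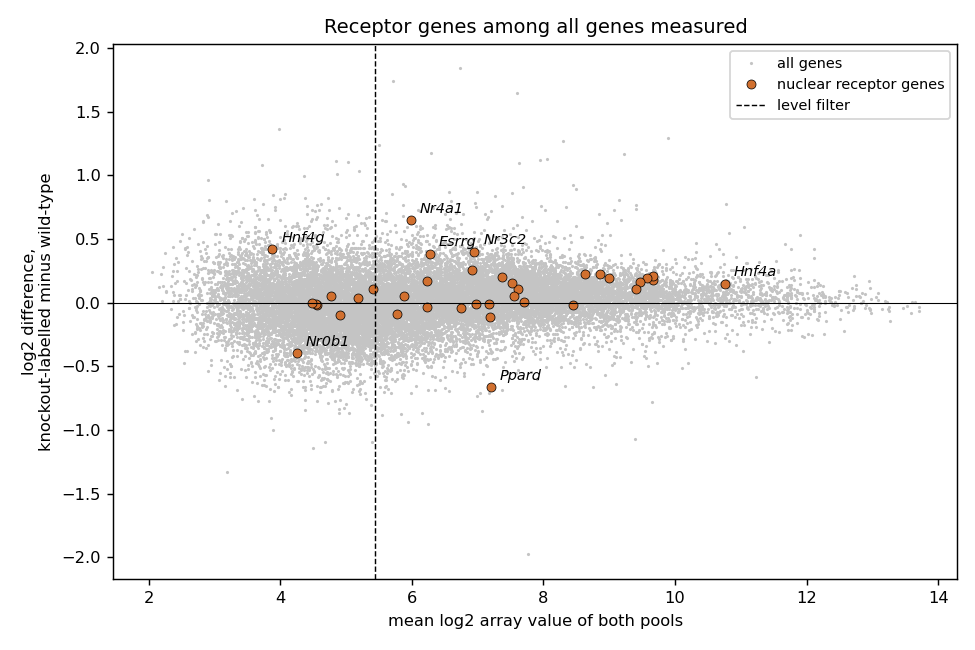
Log2 difference between the pools (vertical axis, knockout-labelled minus wild-type) against the mean log2 array value (horizontal axis) for all 19938 genes (grey points) and the 37 nuclear receptor genes (orange circles), with the level filter as a dashed line. Ppard at -0.66 and Nr4a1 at 0.65 lie at the edge of the grey cloud, and 9 of the 10 receptors of highest value sit in a band from 0.11 to 0.23.

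Among the sensors of bile acids, sterols and foreign compounds, which pair with the retinoid X receptor, all 4 members past the filter were higher in the knockout-labelled pool, as were 59.5% of all genes past it, and none reached 1.2-fold. Nr1i2, which encodes the drug sensor PXR, was at 8.75 in wild-type RNA and 8.97 in knockout-labelled RNA, a difference of 0.23. Nr1h4 differed by 0.21 and Nr1i3, known for switching on drug metabolism, by 0.18. Nr1h3, which encodes the oxysterol receptor LXR-alpha, was at 9.35 and 9.46. Vdr lay below the filter at 4.96 and 4.86.

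The peroxisome proliferator-activated receptors, which respond to fatty acids, did not move as 1 group. Ppard, the most widely expressed of them across tissues, was at 7.53 in wild-type RNA and 6.86 in knockout-labelled RNA. This difference of -0.66 was 4.63 SD between probes, and 0.595% of all genes past the filter lay at least as far from 0. By contrast Ppara, which drives fatty acid oxidation in hepatocytes, was at 9.47 and 9.67, a difference of 0.20. Pparg, best known from fat cells, was at 6.78 and 7.04, a difference of 0.26 just short of 1.2-fold. Ppard and Ppara were thus 0.86 apart on the log2 scale in their differences, and Ppard changed places from 13th to 21st in the order of members while Ppara stayed 4th.

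The retinoid receptors went both ways, with 3 of 6 members above 0 (against 59.5% of all genes past the filter), a median difference of 0.02, and none past 1.2-fold. Rxra, the partner shared by the sensors and the peroxisome proliferator-activated receptors, was at 9.39 and 9.55, a difference of 0.16. Rxrb, another partner, lay on the other side at 7.24 and 7.13, a difference of -0.11, and the dim Rxrg differed by -0.04. Of the retinoic acid receptors, Rarg differed by 0.17, Rarb by 0.05 and Rara by -0.01. The signs of Rara and Rxrg turned with the shift to a common median.

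The thyroid hormone receptors barely differed between the pools. Thrb, the isotype known to act in liver, was at 7.52 and 7.58, and Thra, known from heart and brain, was at 7.18 and 7.17. Their differences of 0.05 and -0.01 were both under 1 SD between probes, and each changed sign under 1 scaling alternative.

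Of the steroid hormone receptors 2 of 4 passed the filter and both were above 0, as were 59.5% of all genes past it. Nr3c2, whose protein binds aldosterone and glucocorticoids, was at 6.75 in wild-type RNA and 7.15 in knockout-labelled RNA. The difference of 0.40 was 2.81 SD between probes, and 4.27% of all genes past the filter lay at least as far from 0. Esr1, the main estrogen receptor gene of liver, was at 7.44 and 7.60, a difference of 0.16. Esr2 at 4.57 and 4.55 and Pgr at 4.54 and 4.53 were dim on both arrays.

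The estrogen-related receptors, orphan receptors known for raising mitochondrial and fasting genes, split in size. Esrrg, at 6.08 and 6.47, differed by 0.39, which is 2.69 SD between probes, with 4.87% of all genes past the filter at least as far from 0. Esrra had the higher value of the 2 and was at 7.70 on both arrays, with a difference of 0.0052, or -0.06 with lowess. Esrrb, known from embryonic stem cells, was dim at 4.75 and 4.80.

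**Figure D3:**
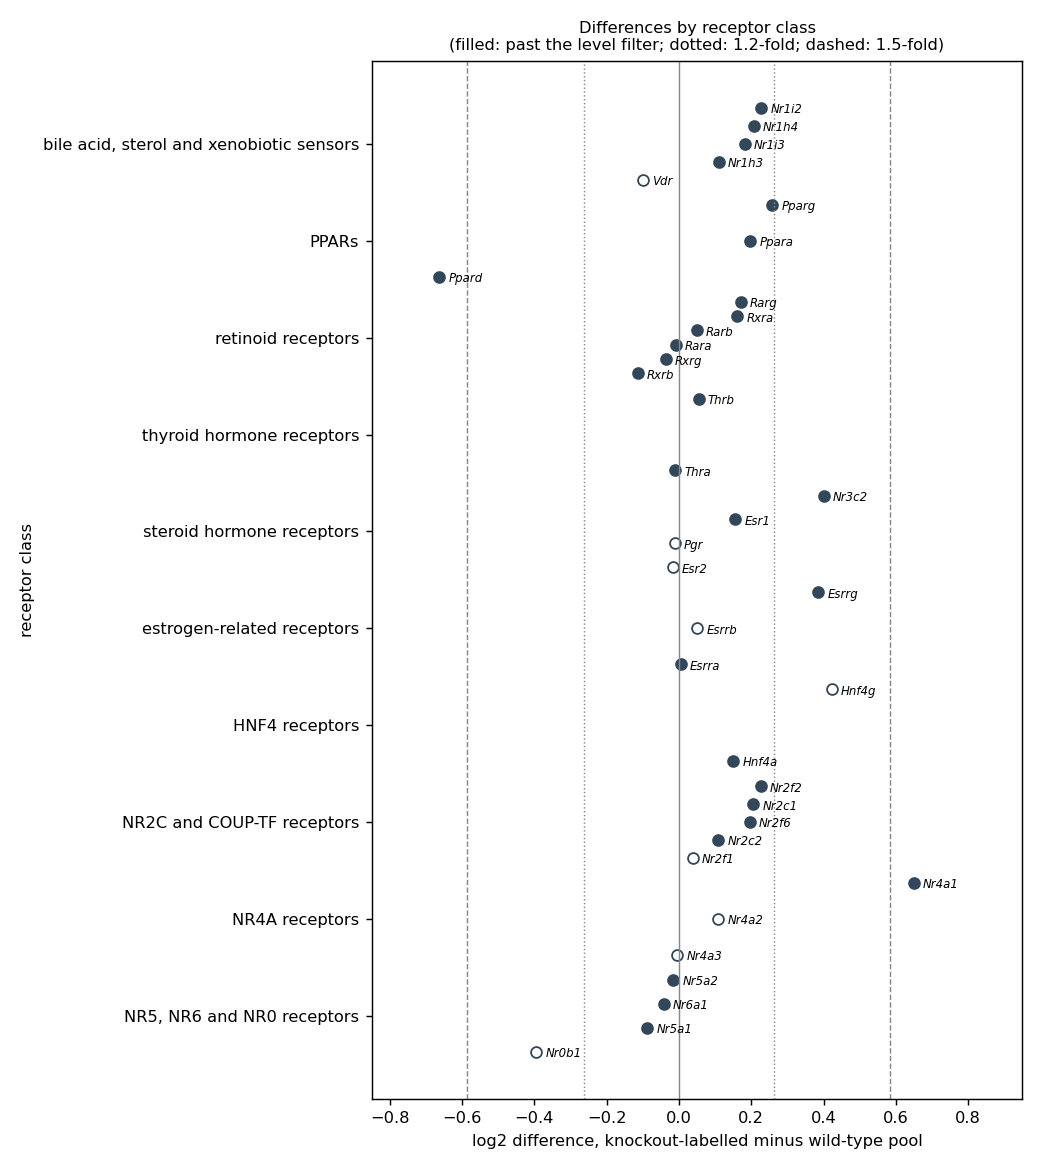
Log2 difference between the pools (horizontal axis, knockout-labelled minus wild-type) of the 37 measured nuclear receptor genes by class (vertical axis); filled circles passed the level filter and open circles did not, with dotted lines at 1.2-fold and dashed lines at 1.5-fold. Filled circles of the sensors and of the NR2C and COUP-TF class all lie above 0, while Ppard lies apart from Ppara and Pparg.

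Of the orphan receptors in the NR2 family, Hnf4a differed by 0.15 and all 4 NR2C and COUP-TF members past the filter were above 0, against 59.5% of all genes past it. Nr2f2, which encodes the venous and mesenchymal regulator COUP-TFII, was at 8.51 and 8.74, a difference of 0.23. Nr2f6 was at 8.91 and 9.10, a difference of 0.20. Nr2c1 and Nr2c2, which encode the testicular receptors TR2 and TR4, differed by 0.21 and 0.11. Nr2f1 was below the filter at 5.16 and 5.20. Hnf4g, the dimmest member of all, was at 3.67 and 4.09, and its difference of 0.42 lies where 24.9% of the 8014 genes below the filter reached 1.2-fold in either direction and 2.15% reached 1.5-fold.

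The NR4A receptors are products of immediate-early genes that act without a classical ligand, and in hepatocytes they are induced by cyclic AMP and are known to raise glucose production. Nr4a1 was at 5.66 in wild-type RNA and 6.31 in knockout-labelled RNA, a difference of 0.65 or 4.54 SD between probes. That SD is pooled over all levels past the filter and may be too narrow for Nr4a1, whose mean of 5.98 lies near the filter. Of all genes past the filter, 0.679% lay at least as far from 0. Nr4a2 at 5.36 and 5.47 and Nr4a3 at 4.49 and 4.48 were below the filter, with differences of 0.11 and -0.0046. At such levels a true change can be compressed, and the SD between the differences of probes was wider, 0.237 below the filter against 0.143 past it. These 2 genes therefore say little about a shared change in the class.

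The remaining orphan receptors lay lower, those past the filter only slightly. Nr5a2, which encodes LRH-1, a regulator of bile acid synthesis, was at 8.46 and 8.44, and Nr6a1, the germ cell nuclear factor gene, was at 6.76 and 6.72. Nr5a1, the gene of the steroidogenic factor SF-1, was at 5.82 and 5.73, and Nr0b1, whose protein DAX1 binds SF-1, was dim at 4.45 and 4.05. Its difference was -0.39, and 9.37% of genes below the filter lay at least as far from 0. All 3 of these receptors past the filter were below 0, against 40.4% of all genes past it. Their median was -0.04. With the common median Nr5a2 turned to 0.03 and Nr6a1 was at -0.0005. Adrenal and gonad markers, the tissues in which Nr5a1 and Nr0b1 are best known, were all below the filter, 5 of 5, with means from 3.77 to 5.03.

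By position, 4 of the 37 members lie on chromosome 1 with Fhl2, and the closest, Nr5a2, is 542 measured genes away. Their differences were -0.02 for Nr5a2, -0.04 for Rxrg, 0.18 for Nr1i3 and 0.39 for Esrrg. The 37 members lie on 18 chromosomes in all.

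Of 10 further nuclear receptor genes, 7 were measured and 5 passed the filter, with a median of 0.09 and 0 of them past 1.2-fold in either direction. The largest differences were those of the clock repressors Nr1d1 at 0.24 and Nr1d2 at 0.18. Coregulators, the proteins through which receptors reach chromatin, had a median of 0.09 over 18 genes past the filter. At 1.2-fold 2 of the 18 were higher and 0 lower, near the 8.66% and 6.16% of all genes past the filter. The higher ones were Pprc1, a relative of the PGC-1 coactivators, at 5.95 and 6.69, 1.68-fold higher, and Hdac3, the deacetylase of the corepressor complexes, at 8.85 and 9.13, 1.22-fold higher.

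Known target genes were set beside their receptors. For Ppara, which was 0.20 higher, 17 targets had a median of 0.15, and 3 of the 17 were at least 1.2-fold higher and 0 lower, against 8.66% and 6.16% of all genes past the filter. Acot2, an acyl-CoA thioesterase, was 1.68-fold higher and Angptl4, an inhibitor of lipoprotein lipase, 1.56-fold higher. The targets Pdk4 at -0.24, Cyp4a14 at -0.19 and Cyp4a10 at -0.13 lay on the other side (the Cyp4a genes were chosen after their values were seen). For PXR and CAR, whose genes were 0.23 and 0.18 higher, 11 targets had a median of 0.10. At 1.2-fold 2 of the 11 were higher and 0 lower, against 8.66% and 6.16% of all genes past the filter. These 2 were also past 1.5-fold higher, as were 0.621% of all genes past the filter. They were Alas1 of heme synthesis at 2.45-fold and the cytochrome gene Cyp2b10 at 1.58-fold. Cyp3a11, another classical target, was at -0.14 (chosen after its value was seen). For Nr1h4, 9 targets had a median of 0.05, and the 2 past 1.2-fold were lower, against 6.16% of all genes past the filter. They were the bile acid exporter subunit Slc51b at -0.38 and the bile acid conjugating enzyme Baat at -0.28. Slc51b, at 5.67 and 5.29, reached the filter of 5.44 on the wild-type array only, where it was higher.

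For Nr1h3 11 targets, Nr1h3 itself among them, had a median of 0.05, with the bile acid enzyme Cyp7a1 at 0.53 and the sterol exporter Abcg5 at 0.30. Cyp7a1 and Abcg5 also lead the 6 targets of Nr5a2, with a median of 0.19, while Nr5a2 itself was at -0.02. The 11 targets of Hnf4a had a median of 0.0051, led by the glucose phosphatase G6pc at 0.53 and Cyp2d22 at 0.15. For the retinoic acid receptors, 7 targets, Rarb itself among them, had a median of 0.05, which is the value of Rarb. Cyp26a1, which degrades retinoic acid, was 2.14-fold higher, and Cyp26b1 was at 0.19.

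The 8 thyroid hormone receptor targets had a median of 0.03, led by the gluconeogenic gene Pck1 at 0.42 and the lipogenic gene Thrsp at 0.39. For the estrogen-related receptors, 9 targets had a median of 0.03, with Pdk4 at -0.24 and cytochrome c, Cycs, at -0.31, though its 3 probes averaged 0.03. The list medians lay between 0.0051 and 0.19, beside 0.04 for all genes past the filter. The receptors with the largest differences, Ppard and Nr4a1, have no list here.

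**Figure D4:**
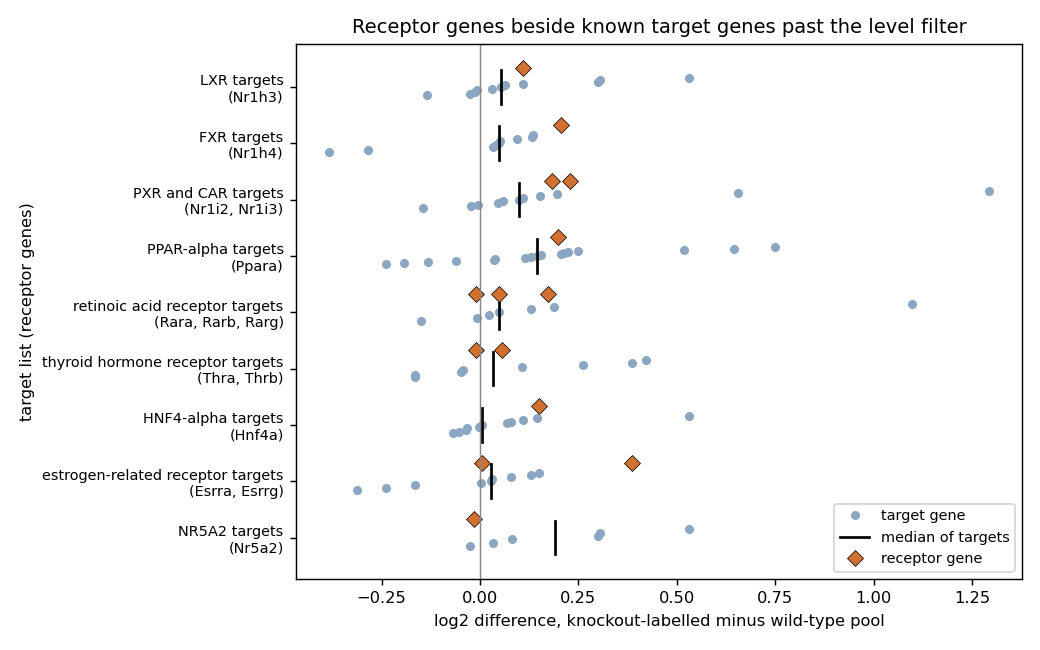
Log2 difference between the pools (horizontal axis, knockout-labelled minus wild-type) of target genes past the level filter (blue circles, median as a black bar) and of their receptor genes (orange diamonds) for 9 target lists (vertical axis). Medians lie between 0.0051 and 0.19, and the genes farthest right are Alas1 and Cyp26a1.

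Several receptors are made in more than 1 liver cell type, and in whole liver fewer cells of a type and less RNA per cell cannot be told apart. Kupffer cell and macrophage markers, which bear on Nr1h3, Pparg and Ppard, were all lower, 9 of 9, against 40.4% of all genes past the filter. At 1.2-fold 6 of the 9 were lower, against 6.16% of all genes, and the median of the 9 was -0.28. The 1 that turns with the common median is Cd5l at -0.0077 (chosen after its value was seen). The summed linear value of the 9 markers was 3072 in wild-type RNA and 2630 in knockout-labelled RNA. Ppard was lower like these markers and Nr1h3 and Pparg were higher, and the part of macrophages in these values was not tested.

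Sinusoidal endothelial markers, which bear on Nr2f2, had a median of 0.12, 0 past 1.2-fold and summed values of 3113 and 3395. Of these, 7 of 8 were above 0, or 8 of 8 with the common median, against 59.5% and 69.2% of all genes past the filter. Stellate cell markers had a median of -0.02 over 8 genes, turning to 0.02 with the common median, with 1 past 1.2-fold in each direction and sums of 2409 and 2325. At that fold 8.66% of all genes past the filter were higher and 6.16% lower. Hepatocyte markers had a median of -0.04 over 8 genes, 0 past 1.2-fold and sums of 68590 and 67508. Above 0 were 3 of the 8, Hnf4a itself among them, against 59.5% of all genes past the filter. Bile duct markers had a median of 0.21 over 4 genes past the filter, and sums of 303 and 323 over all 6 measured. At 1.2-fold 2 of the 4 were higher, against 8.66% of all genes past the filter. These 2 were Krt19 at 5.35 and 5.62 and Krt23 at 5.43 and 5.75. Only their knockout-labelled values reached the filter of 5.44, so the count and the median lean upward. The part of these cell types in the differences of Nr2f2 and the other receptors was not tested.

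Markers of other tissues and of blood were few past the filter. Those of fat cells, which bear on Pparg, had a median of -0.22 over 3 genes past the filter, and sums of 226 and 200 over all 5 measured, while Pparg was 0.26 higher. Those of B, T and NK cells had a median of -0.14 over 3 genes, of which Cd8a reached the filter only on the wild-type array. The markers of these cells below the filter went the other way: Cd4 at 0.28, Cd79a at 0.26, Klrb1c at 0.19 and Ms4a1 at 0.05 (chosen after their values were seen). Markers of skeletal muscle, where Esrrg is also known, had a median of -0.16 over 4 genes. Of these, Ckm and Tnnt3 reached the filter only on the wild-type array, where they were higher. Mylpf did so only on the knockout-labelled array (chosen after its value was seen). Markers of exocrine pancreas had a median of 0.08 over 2 genes. Red blood cell markers had a median of 0.08 over 2 genes and the 1 neutrophil marker past the filter was at -0.16. That marker, S100a9, and the red blood cell marker Slc4a1 reached the filter only on the wild-type array, where they were higher.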

How the data were processed

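The authors deposited 1 log2 value for each probe set, called a probe, on each array. Affymetrix Expression Console 1.0, RMA and Partek 6.4 were used, per the submitters' processing notes, which give neither their order nor their roles. Program settings are not stated there, and the genome build is not given in the sources used here. A true change in a dim transcript can be shrunk by RMA, though measured differences spread more widely below the filter than past it. Of 28853 probes, 21789 had 1 gene symbol, 1621 several and 5443 none in the platform annotation. The probe with the highest mean stood for its gene. Differences were taken with no further scaling, in Python 3.11.15 with pandas 2.3.3 and statsmodels 0.14.6. With 1 array a group no test was run, and precision is limited by having 2 arrays. Folds of 1.5 and 1.2 were counted. The counting was tested on simulated data with known changes, at 1.5-fold only and with less noise than between probes here. It checks the code, not how reliable the counts at 1.2-fold are. Genes named beyond the receptors are, for each list, members past 1.5-fold and the 2 largest absolute differences past the filter, and others are marked. Members and lists were chosen with earlier results of these data known. Alternatives were a common median, lowess (span 0.3), the mean of probes, no level filter and one at the 60th percentile. All 37 receptors measured matched the RefSeq gene table of GRCm38.p6, used for names and order.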

Additional observations from a re-analysis of the deposited data

How the results depend on the processing

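Shifting both arrays to a common median raised the members at least 1.2-fold higher from 3 to 6, adding Pparg, Nr1i2 and Nr2f2, with 1 lower in both cases. At a 60th-percentile filter, 6.69 on the log2 scale, 22 of the 28 members remained, without Nr4a1 and Esrrg among others, and 0 of them were 1.5-fold higher and 1 was 1.2-fold higher. Without a level filter 4 members were 1.2-fold higher, Hnf4g being added, and 2 were 1.2-fold lower, Nr0b1 being added. At that fold 8.66% of all genes past the 40th-percentile filter and 10.1% of those below it were higher. Lower were 6.16% and 14.8%. The shares of all genes at the 60th-percentile filter were not counted. The median difference ran from 0.10 with lowess to 0.19 with the common median. Of the 37 differences 7 changed sign with the common median and 5 with lowess, and none of these reached 1.2-fold. No difference moved by as much as the 0.143 SD between probes under these 2 alternatives, and the mean of probes could not move a member because each had 1 probe. No paired analysis was possible because each group holds 1 array.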
